A study of Mus musculus with 6 samples.

Results

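The genes described here encode the integrins and the proteins that join them to the actin cytoskeleton: alpha and beta chains, kindlins, talins, the complex of integrin-linked kinase (ILK), PINCH and parvin, adhesion kinases, scaffolds and tensins. They were taken by gene symbol from a list of 40, of which 37 were measured, of 19505 genes in all; Itga1, Itga10 and Ptk2 were not analysed here. Each of the 37 had a single probe set. The samples were 393P cells, a line from a mouse lung adenocarcinoma, whose name some labels write as 9393P. The cells had been stably transfected with AC9 (3 arrays) or with the empty VECTOR (3 arrays), and both groups grew in RPMI with serum and went through selection with puromycin or G418. The labels do not expand AC9; the RefSeq gene table lists it as a synonym of Adcy9, an adenylyl cyclase that makes cAMP. The sources used here do not give which drug selected which group, how many clones a group holds, or whether its samples came from separate cultures. AC9, the drug and the selected cells thus cannot be told apart, and p-values reflect the spread of these samples alone, some of which may be technical.

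Integrins are receptors made of an alpha and a beta chain. The alpha chain largely sets which matrix protein is bound, and the short tail of most beta chains binds talin and kindlin, which switch the receptor to its active state. The complex of ILK, PINCH and parvin, together with paxillin, vinculin, zyxin and the tensins, then ties the bound receptor to actin, and the kinases of the adhesion relay the signal. In epithelial cells, receptors for laminin and collagen anchor the cell to the basement membrane.

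The values are log2 intensities per probe set, so a difference of 1 is a 2-fold change, and levels of different probe sets are not compared with each other. A gene passed when the Benjamini-Hochberg adjusted p of limma over all 19505 genes was under 0.05. The 90th percentile of the 5222 negative control probe sets, 6.06 as the mean over the arrays, was taken as the bound of dim signal. Array medians lay between 6.42 and 6.46. Adcy9 read 6.78, 6.60 and 6.82 on the AC9 arrays against 6.12, 6.09 and 6.15 on the VECTOR arrays (adjusted p 0.00264), but the sources used here do not say whether its probe set detects the introduced copy. All 7 epithelial markers (Epcam, Cdh1, Krt8, Krt18, Krt19, Cldn7 and Esrp1) lay above the bound in at least 1 group, and their mean level ran from 9.81 to 9.85 over the AC9 arrays and from 9.79 to 9.85 over the VECTOR arrays. Cldn7 and Esrp1 lay near the bound. Cldn7 was under it in AC9 (6.02, against 6.30 in VECTOR) and Esrp1 in VECTOR (5.79, against 6.22 in AC9). Of these markers Krt19 was lower in AC9 (a log2 change of -0.47) and Epcam higher (0.44), a call lost without any single array other than AC9 replicate 3 (adjusted p up to 0.0983). The 7 leukocyte markers measured were under the bound in both groups (mean level 4.59 to 4.67 in AC9 and 4.55 to 4.68 in VECTOR), as were 6 of 7 endothelial markers (all but Esam) and 5 of 6 fibroblast markers (all but Col1a1). In such bulk samples, fewer cells of a kind and less RNA per cell cannot be told apart.

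In AC9 cells, 6 of the 37 genes were higher (Itga2, Fermt1, Parvb, Tns4, Itga6 and Lims1) and 5 were lower (Fermt2, Itgb5, Itgb3, Tns1 and Tns3). The 11 make up 29.7% of the 37, against 17.6% of all genes called in either direction; 8.26% of all genes were called higher and 9.29% lower. Among genes above the bound in both groups, 11 of 30 members were called (36.7%), against 27.8% of all such genes. The median log2 change of the 37 was 0.04, against 0.02 over all genes, with a range of -0.73 to 1.29. The groups did not overlap for 17 of the 37 (45.9%), against 35.1% of all genes. Among genes above the bound in both groups these shares were closer, 56.7% of the 30 members against 51.7% of all such genes. Of 10 alpha chains, 2 rose and 0 fell, and of 8 beta chains, 0 rose and 2 fell, shares close to that of all genes; at an unadjusted p under 0.05, 3 alpha chains were higher and 0 lower, and 1 beta chain was higher and 2 lower. Whether the kinds of chain differed from each other was not tested. Among the 19 linkers and signalling proteins, 4 rose and 3 fell. The count of lower members was 3, not 5, without AC9 replicate 2 or without VECTOR replicate 3.

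**Figure D1:**
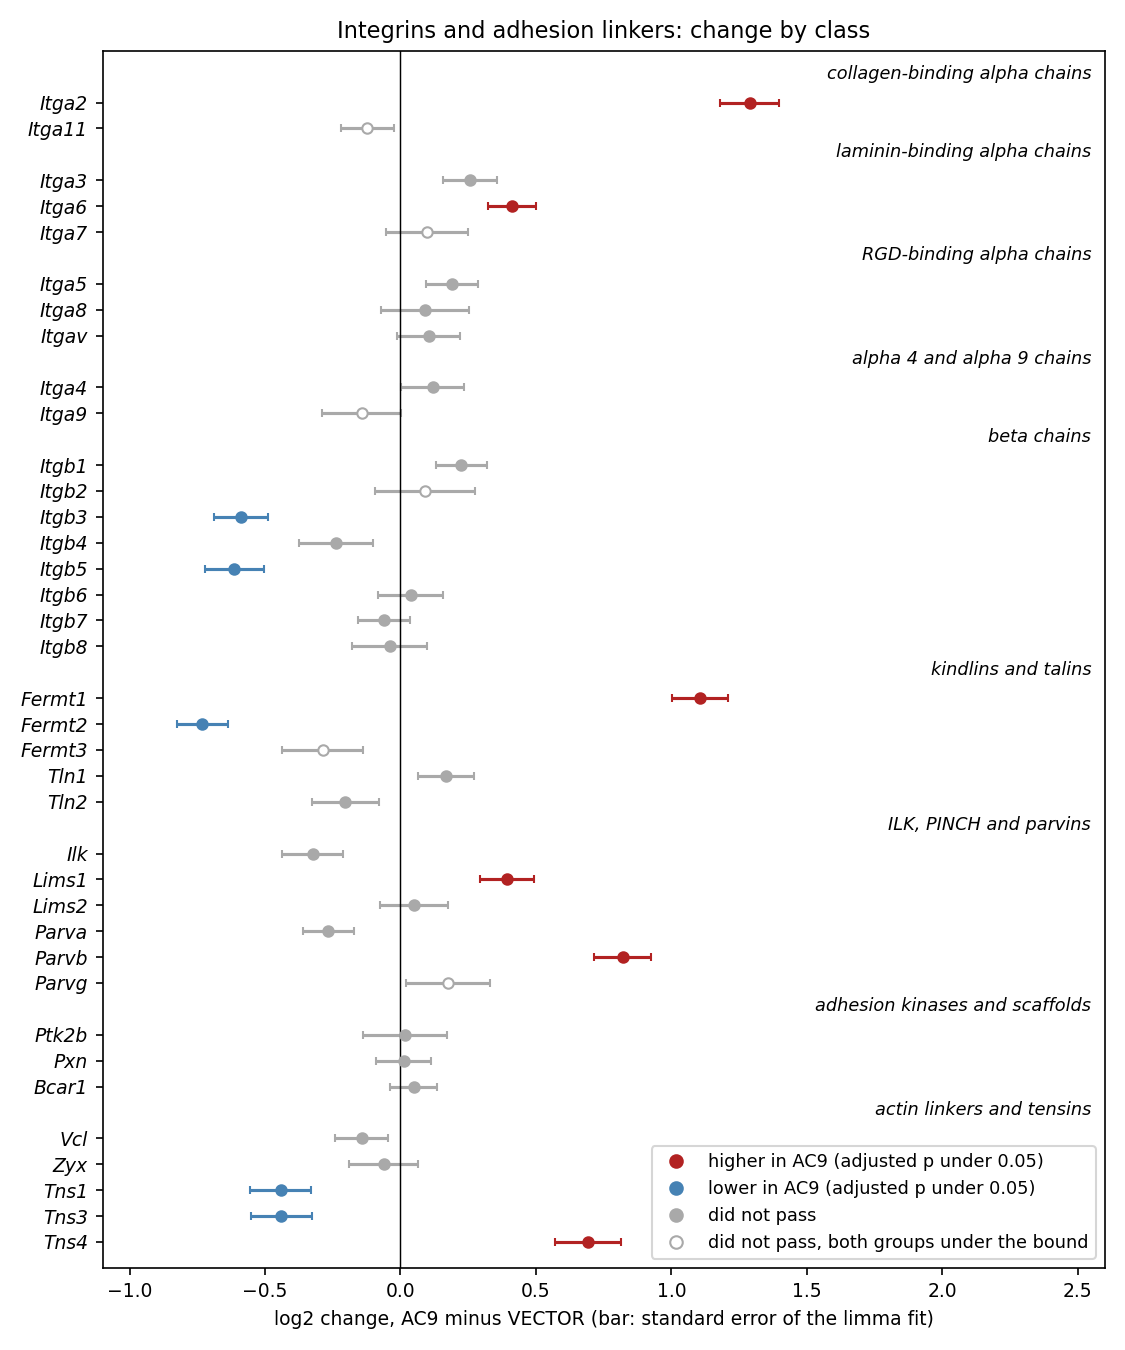
Log2 change (AC9 minus VECTOR, x axis) of each of the 37 measured genes, grouped by class, with the standard error of the limma fit as a bar. Red points are the 6 genes higher in AC9, blue points the 5 lower, grey points those that did not pass, and open points the 6 genes whose groups both lay under the bound; the range runs from -0.73 (Fermt2) to 1.29 (Itga2).

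The start-site windows of the 3 largest rises and 2 largest falls for which RefSeq sequences were at hand are shown first, since they belong to the members that changed most. Each window runs from 250 bases before to 50 after the annotated start (GRCm38.p6, RefSeq), 5′ to 3′ on the gene's strand. Capitals mark every match, on either strand, to GGGCGG (the SP1 box) or CACCTG (the E-box of ZEB and SNAI repressors). The windows lie at chr13:114932051-114932350 (minus strand) for Itga2, chr2:132945987-132946286 (minus strand) for Fermt1, chr15:84231793-84232092 (plus strand) for Parvb, chr14:45530016-45530315 (minus strand) for Fermt2 and chr16:33829415-33829714 (plus strand) for Itgb5.
Itga2: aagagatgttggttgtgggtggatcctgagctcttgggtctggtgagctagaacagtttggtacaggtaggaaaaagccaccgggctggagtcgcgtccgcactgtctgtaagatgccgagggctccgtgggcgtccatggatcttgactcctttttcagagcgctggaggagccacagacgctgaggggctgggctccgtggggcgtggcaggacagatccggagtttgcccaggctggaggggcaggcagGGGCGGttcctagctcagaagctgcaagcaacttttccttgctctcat
Fermt1: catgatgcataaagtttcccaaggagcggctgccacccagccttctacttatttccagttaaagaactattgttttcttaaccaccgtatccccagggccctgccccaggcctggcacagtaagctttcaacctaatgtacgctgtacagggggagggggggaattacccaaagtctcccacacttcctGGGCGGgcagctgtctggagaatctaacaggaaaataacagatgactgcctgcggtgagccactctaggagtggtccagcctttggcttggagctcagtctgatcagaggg
Parvb: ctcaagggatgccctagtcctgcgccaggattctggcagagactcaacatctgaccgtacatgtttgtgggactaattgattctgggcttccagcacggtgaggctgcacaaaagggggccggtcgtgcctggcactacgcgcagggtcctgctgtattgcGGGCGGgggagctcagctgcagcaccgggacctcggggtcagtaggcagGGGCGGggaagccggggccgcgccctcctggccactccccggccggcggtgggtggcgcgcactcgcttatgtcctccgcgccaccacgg
Fermt2: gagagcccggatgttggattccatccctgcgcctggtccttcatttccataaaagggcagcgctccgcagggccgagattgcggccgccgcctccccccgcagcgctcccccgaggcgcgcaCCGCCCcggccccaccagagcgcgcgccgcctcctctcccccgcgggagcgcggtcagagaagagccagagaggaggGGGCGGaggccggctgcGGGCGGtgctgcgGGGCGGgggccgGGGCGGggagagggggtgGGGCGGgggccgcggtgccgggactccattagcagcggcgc
Itgb5: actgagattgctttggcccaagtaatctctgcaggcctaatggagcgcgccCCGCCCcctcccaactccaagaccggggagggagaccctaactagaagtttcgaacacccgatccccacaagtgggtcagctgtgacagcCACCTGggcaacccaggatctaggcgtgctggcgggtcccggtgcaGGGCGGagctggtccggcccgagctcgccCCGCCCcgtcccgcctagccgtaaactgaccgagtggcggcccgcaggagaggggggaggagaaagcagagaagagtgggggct

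The kindlin genes, which changed in opposite directions, have unlike windows. That of Fermt1 is 53.0% G or C and holds a single SP1 box, at position -61 from the start, whereas that of Fermt2 is 76.7% G or C and holds 6, of which the 5′-most is at -128 and the last at 10. The windows of Parvb, which rose, and Itgb5, which fell, are closer, at 67.0% and 65.7% G or C with 2 and 3 SP1 boxes. That of Itga2, which rose, is 59.3% G or C with 1. Whether composition went with the direction of change was not tested. Over all 32851 windows the median was 52.7% G or C. Windows were found for 26 of the 37 genes, 8 of them called. At least 1 window of each of these 8 held an SP1 box, as did windows of 10 of the 18 members that were not called and of 38.2% of all genes with a window. The 8 called genes and, of these 10, all but Parvg lay above the bound in both groups. The 38.2% and the shares of all genes below cover all 27025 genes with a window, measured or not. Shares among genes above the bound were not computed. The E-box was found for 1 of 4 higher genes (Lims1) and 2 of 4 lower genes (Itgb5 and Tns3) and for 6 of the 18 others, against 22.6% of all genes. TGACG, the half-site of the cAMP response element, was in the windows of 0 of the 8 called genes and of 5 of the 18 others (Ilk, Itga9, Itgb1, Itgb6 and Tln1), against 23.0% of all genes. TGANTCA, the AP-1 site, was found for 0 of the 8 and 3 of the 18, against 8.97%, and GGAATG, the TEAD site, for 0 of the 8 and 2 of the 18, against 16.6%. SP1 and E-box matches do not overlap in the windows shown. These matches describe letters in windows of 300 bases only, and the motifs were chosen after the genes' values were known.

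Among the alpha chains, Itga2, which pairs with Itgb1 to form a collagen receptor of epithelial cells and platelets, changed most. It read 11.38, 11.36 and 11.47 on the AC9 arrays and 9.94, 10.13 and 10.28 on the VECTOR arrays. Every AC9 array lay above every VECTOR array by at least a log2 unit, and the rise was 2.44-fold, a log2 change of 1.29 (SE 0.11, limma adjusted p 8.80e-05). Itga11, the other collagen-binding chain measured and a chain typical of fibroblasts, lay under the bound in both groups.

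Of the laminin-binding chains, Itga6, which pairs with Itgb1 or Itgb4, read 11.34, 11.44 and 11.39 on the AC9 arrays and 10.94, 11.03 and 10.97 on the VECTOR arrays. The groups did not overlap, and the rise was smaller than that of Itga2, 1.33-fold, a log2 change of 0.41 (SE 0.09, limma adjusted p 0.0117). Itga3, the chain of the main epithelial laminin receptor with Itgb1, read 11.55, 11.77 and 11.74 on the AC9 arrays and 11.36, 11.50 and 11.43 on the VECTOR arrays. Its groups did not overlap either, but its change of 0.26 did not pass (SE 0.10, limma adjusted p 0.110); it passed with an intensity-trended prior (adjusted p 0.00357) and with dim genes left out (0.0484). Itga7, best known from muscle, was under the bound in both groups.

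Of the chains that bind the RGD sequence of fibronectin and vitronectin, 0 of 3 passed by limma, and 0 at an unadjusted p under 0.05. Itga5, the fibronectin receptor chain, averaged 7.42 ± 0.07 in AC9 and 7.23 ± 0.09 in VECTOR (SD, n = 3 each), a log2 change of 0.19 with an adjusted p of 0.216. Itgav, the chain shared by the vitronectin receptors, averaged 9.70 ± 0.10 in AC9 and 9.60 ± 0.18 in VECTOR and its groups overlapped (adjusted p 0.605). Itga8 averaged 6.14 ± 0.11 in AC9 and 6.05 ± 0.35 in VECTOR, with VECTOR under the bound. Itga4, known from leukocyte receptors for Vcam1 and fibronectin, averaged 6.21 ± 0.20 in AC9 and 6.09 ± 0.04 in VECTOR, close to the bound, and Itga9 was under it in both groups.

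The beta chains that fell were Itgb3 and Itgb5, both partners of Itgav in vitronectin receptors. Itgb3 read 8.02, 7.80 and 7.94 on the AC9 arrays and 8.42, 8.53 and 8.57 on the VECTOR arrays. It was 1.50-fold lower in AC9, a log2 change of -0.59 (SE 0.10, limma adjusted p 0.00373). Itgb5 read 9.21, 9.52 and 9.28 on the AC9 arrays and 10.01, 9.96 and 9.89 on the VECTOR arrays. All 3 AC9 arrays lay below all 3 VECTOR arrays, a 1.53-fold difference with a log2 change of -0.61 (SE 0.11, limma adjusted p 0.00448). Their shared partner Itgav did not pass, as given above.

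Itgb1, the partner of most alpha chains named here, read 11.38, 11.39 and 11.42 on the AC9 arrays and 11.07, 11.18 and 11.27 on the VECTOR arrays. The groups did not overlap, and the change of 0.22 did not pass (SE 0.09, limma adjusted p 0.137), though it did with the intensity-trended prior (adjusted p 0.00885). Itgb4, the chain of hemidesmosomes, averaged 8.10 ± 0.03 in AC9 and 8.34 ± 0.28 in VECTOR (adjusted p 0.289); VECTOR replicate 3, at 8.65, stood above the other 5 arrays. Itgb6, an epithelial chain that activates latent TGF-beta, averaged 7.13 ± 0.18 in AC9 and 7.09 ± 0.14 in VECTOR (adjusted p 0.874), and Itgb8, another such chain, 6.08 ± 0.11 in AC9 and 6.12 ± 0.27 in VECTOR (0.883). Itgb7, known from lymphocyte homing receptors, read 8.33, 8.43 and 8.52 on the AC9 arrays and 8.57, 8.46 and 8.44 on the VECTOR arrays. It thus lay well above the bound in both groups with overlapping values (adjusted p 0.724), while Itgb2, the chain common to leukocytes, was under the bound in both.

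The kindlins showed the widest split of any pair of related genes compared. Fermt1, the kindlin of epithelia whose loss causes skin blistering in Kindler syndrome, read 11.26, 11.33 and 11.32 on the AC9 arrays and 10.06, 10.17 and 10.36 on the VECTOR arrays. It rose 2.15-fold, a log2 change of 1.11 (SE 0.10, limma adjusted p 0.000157). Fermt2, the broadly expressed kindlin, read 8.37, 8.36 and 8.34 on the AC9 arrays and 9.16, 8.97 and 9.14 on the VECTOR arrays. It was 1.66-fold lower in AC9, a log2 change of -0.73 (SE 0.09, limma adjusted p 0.000878), and neither kindlin's groups overlapped. Fermt3, the kindlin of blood cells, was under the bound in both groups. Talins, the other activators of beta tails, did not pass. Tln1 averaged 11.00 ± 0.08 in AC9 and 10.84 ± 0.14 in VECTOR (a log2 change of 0.17, adjusted p 0.327), and Tln2 averaged 6.42 ± 0.16 in AC9 and 6.63 ± 0.18 in VECTOR (-0.20, 0.319).

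**Figure D2:**
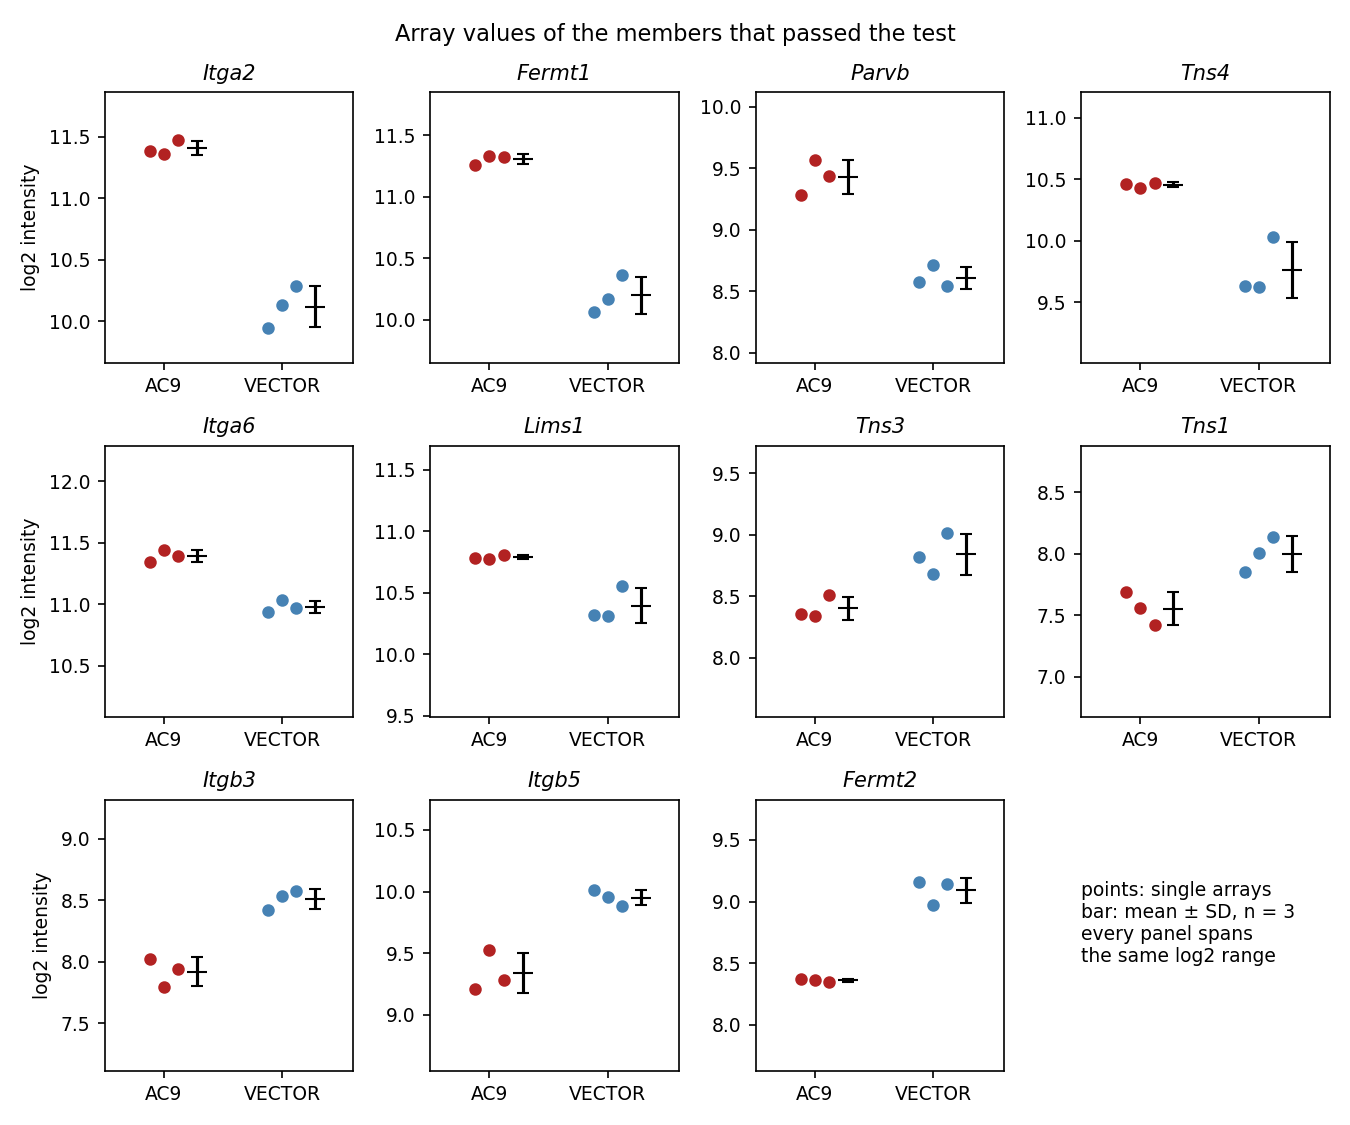
Log2 intensity (y axis) on each array for the 11 genes that passed the test, with AC9 in red left of VECTOR in blue; black bars give the mean and SD of 3 arrays, and every panel spans the same log2 range. The groups do not overlap in any of the 11 panels, and the gap is widest for Itga2 (11.36 or more in AC9 against 10.28 or less in VECTOR).

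In the complex of ILK, PINCH and parvin, an adaptor and a parvin rose. Parvb, a parvin that binds ILK and actin, read 9.28, 9.56 and 9.44 on the AC9 arrays and 8.58, 8.71 and 8.54 on the VECTOR arrays. It rose 1.77-fold, a log2 change of 0.82 (SE 0.11, limma adjusted p 0.000893). Lims1, the PINCH adaptor that holds ILK, read 10.78, 10.78 and 10.81 on the AC9 arrays and 10.32, 10.31 and 10.56 on the VECTOR arrays. The AC9 arrays were closely spaced and all above VECTOR, by 1.31-fold on average, a log2 change of 0.39 (SE 0.10, limma adjusted p 0.0244). The call of Lims1 was lost without AC9 replicate 1, 2 or 3 (adjusted p 0.0730, 0.0630 and 0.0756) and without VECTOR replicate 1 or 2 (0.0780 and 0.0750), so that 1 gene of this complex rose in place of 2 in each of those fits.

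The other genes of the complex did not pass. Ilk, the central pseudokinase, read 9.33, 9.45 and 9.59 on the AC9 arrays and 9.94, 9.64 and 9.77 on the VECTOR arrays. Parva, the most widely expressed parvin, read 9.28, 9.40 and 9.34 on the AC9 arrays and 9.55, 9.72 and 9.54 on the VECTOR arrays. For both, every AC9 array was below every VECTOR array, with log2 changes of -0.32 (adjusted p 0.0814) and -0.27 (0.0883); both passed with the intensity-trended prior (0.00753 and 0.0170) and with dim genes left out (0.0365 and 0.0359). Lims2, the other PINCH, averaged 6.54 ± 0.04 in AC9 and 6.49 ± 0.25 in VECTOR (adjusted p 0.835), and Parvg, the parvin of blood cells, was under the bound in both groups. Rsu1, a binding partner of PINCH that is not on the member list and was chosen after its value was seen, read 10.72, 10.78 and 10.86 on the AC9 arrays and 11.36, 11.25 and 11.33 on the VECTOR arrays. It was 1.44-fold lower in AC9 (a log2 change of -0.53, limma adjusted p 0.00423), while its partner Lims1 rose.

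None of the adhesion kinases and scaffolds passed: 0 of 3 at an adjusted p under 0.05 by limma and 0 of 3 at an unadjusted p under 0.05. Pxn, paxillin, the docking scaffold of the plaque, read 10.07, 10.12 and 10.26 on the AC9 arrays and 10.04, 10.27 and 10.10 on the VECTOR arrays. Bcar1, the scaffold known as Cas, averaged 9.93 ± 0.04 in AC9 and 9.88 ± 0.03 in VECTOR. Their changes of 0.01 (SE 0.10) and 0.05 (SE 0.09) were no larger than their standard errors. Ptk2b, the calcium-sensitive relative of focal adhesion kinase, averaged 6.09 ± 0.34 in AC9 and 6.07 ± 0.07 in VECTOR, close to the bound. Vcl, vinculin, which reinforces the link of talin to actin, averaged 9.15 ± 0.07 in AC9 and 9.30 ± 0.11 in VECTOR (adjusted p 0.374), and Zyx, zyxin, a sensor of tension on actin, 8.76 ± 0.22 in AC9 and 8.82 ± 0.11 in VECTOR (0.794).

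All 3 tensins on the member list passed, and not in the same direction. Tns2, a tensin counted among the other plaque genes and named after its value was seen, did not pass. It averaged 9.43 in AC9 and 9.65 in VECTOR, without overlap (a log2 change of -0.22, limma adjusted p 0.155). Tns4, a short tensin that lacks the actin-binding region of its relatives, read 10.46, 10.43 and 10.47 on the AC9 arrays and 9.63, 9.62 and 10.03 on the VECTOR arrays. It rose 1.62-fold, a log2 change of 0.69 (SE 0.12, limma adjusted p 0.00453); VECTOR replicate 3 stood above the other 2 VECTOR arrays but below every AC9 array. Tns3, which couples beta tails to actin, read 8.36, 8.34 and 8.51 on the AC9 arrays and 8.82, 8.68 and 9.02 on the VECTOR arrays. Tns1, a long tensin of stable fibrillar adhesions, read 7.69, 7.56 and 7.42 on the AC9 arrays and 7.85, 8.00 and 8.14 on the VECTOR arrays. Both of these were lower in every AC9 array, by 1.36-fold and 1.36-fold, with log2 changes of -0.44 (SE 0.11, limma adjusted p 0.0242) and -0.44 (SE 0.11, limma adjusted p 0.0251). Their calls were lost in several of the fits that left out an array. Over those fits the log2 change of Tns3 ran from -0.52 to -0.35 and that of Tns1 from -0.52 to -0.37. Tns3 no longer passed without AC9 replicate 1 (0.0841) or 2 (0.0787) and without VECTOR replicate 1 (0.0600) or 3 (0.0675). Tns1 no longer passed without AC9 replicate 2 (0.0663) or 3 (0.0919) and without VECTOR replicate 2 (0.0643) or 3 (0.0745). The 8 other called genes (Itga2, Itga6, Itgb3, Itgb5, Fermt1, Fermt2, Parvb and Tns4) kept their call in each of 13 alternative fits.

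Background probe sets, which match no transcript, were also lower in AC9: 19 of 23 without overlap, 0 higher, with a median log2 difference of -0.06 and a largest one of -0.50 (6.80 ± 0.17 in AC9 and 7.30 ± 0.24 in VECTOR, SD, n = 3). Tns1 and Tns3 fell by less than that largest difference, and Itgb3, Itgb5 and Fermt2 by more. The part of the background shift in these falls, or in falls of genes outside the member list, was not tested.

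Whether close relatives changed unequally was asked for 7 pairs of genes, from the difference of the pair on each array. The change of Fermt1 exceeded that of Fermt2 by 1.84 on the log2 scale (SE 0.10), a 3.57-fold shift of one against the other. Tns4 moved against Tns3 by 1.13 (SE 0.07) and Parvb against Parva by 1.09 (SE 0.05). Itgb6 moved against Itgb5 by 0.65 (SE 0.12). The differences were -0.37 (SE 0.11) for Tln2 minus Tln1, -0.34 (SE 0.15) for Lims2 minus Lims1 and -0.15 (SE 0.04) for Itga3 minus Itga6. In each pair the AC9 and VECTOR arrays did not overlap, and the exact permutation test over arrays (two-sided, 20 regroupings) gave p = 0.1 before and after adjustment over the 7 pairs. That is the smallest p that 3 arrays against 3 allow, so this test cannot pass 0.05. The share of other gene pairs without overlap was not computed. For single genes it was 35.1% of all genes and 51.7% of those above the bound in both groups.

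**Figure D3:**
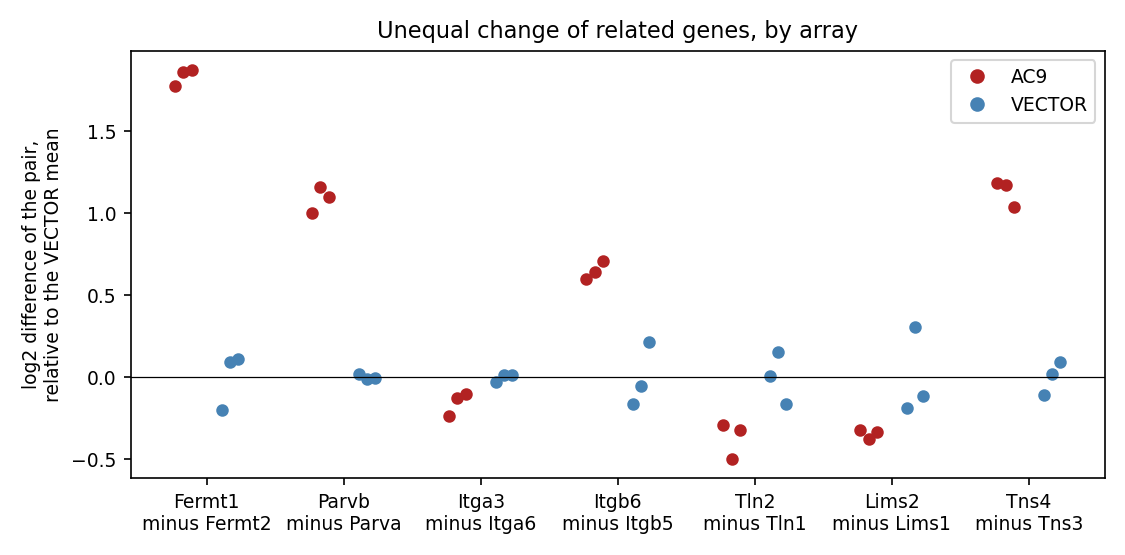
For 7 pairs of related genes (x axis), the log2 difference of the pair on each array relative to its VECTOR mean (y axis), with AC9 in red left of VECTOR in blue. The AC9 arrays lie furthest from VECTOR for Fermt1 minus Fermt2, with a mean shift of 1.84, and nearest for Itga3 minus Itga6, at -0.15.

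The genes next to the 11 called members on the chromosome were also looked up. Of the 18 neighbouring protein-coding genes measured, 3 were called, all higher in AC9, a share close to the 17.6% of all genes. Lims1 stood between Gcc2, a golgin, and Ranbp2, a nucleoporin, and all 3 rose (log2 changes of 0.41 for Gcc2 and 0.62 for Ranbp2, with limma adjusted p of 0.0144 and 0.00591). Fermt2 fell beside Gnpnat1, an enzyme of amino sugar synthesis, which rose by 0.52 (limma adjusted p 0.00613). Parvb rose beside Parvg, which was under the bound in both groups.

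Genes around the receptors were counted in 3 further lists. Of 27 integrin ligands, 3 rose and 6 fell, with a median log2 change of -0.01. The share called was 33.3%, against 17.6% of all genes and 27.8% of genes above the bound in both groups. The largest changes were falls. Thbs1, thrombospondin, a matrix glycoprotein that activates TGF-beta, read 8.87, 8.99 and 9.10 on the AC9 arrays and 10.58, 10.66 and 10.32 on the VECTOR arrays. It was 2.90-fold lower in AC9, a log2 change of -1.53 (SE 0.12, limma adjusted p 5.00e-05). Tnc, tenascin, was 2.05-fold lower, with means of 7.07 ± 0.16 in AC9 and 8.10 ± 0.12 in VECTOR (limma adjusted p 0.000386). The laminin chains differed in direction: Lamb2 averaged 7.07 ± 0.08 in AC9 and 7.92 ± 0.08 in VECTOR, a log2 change of -0.86, whereas Lamc1 averaged 9.39 ± 0.04 in AC9 and 8.70 ± 0.16 in VECTOR, a change of 0.68 (limma adjusted p 0.000401 and 0.00227). Vcam1, a ligand of the receptors built on Itga4, averaged 10.73 ± 0.08 in AC9 and 11.43 ± 0.06 in VECTOR, a change of -0.70 (limma adjusted p 0.00108). The remaining calls, named after their values were seen, were Fn1, fibronectin, and Lamb1, which were higher by 0.37 and 0.44, and Col6a1 and Col6a2, with changes of -0.50 and -0.40. Lamb1 no longer passed without AC9 replicate 3 (adjusted p 0.0575). Fn1 passed only without VECTOR replicate 3 among the fits that drop an array, Col6a1 without AC9 replicate 3 or VECTOR replicate 3, and Col6a2 without AC9 replicate 3 (adjusted p elsewhere up to 0.115, 0.148 and 0.124). The groups of Col6a1 overlapped, and its call was also lost when quantile normalization was repeated (adjusted p 0.0736), when arrays were centred on their medians (0.0627) and with array weights (0.0527). Vtn, vitronectin, the ligand of receptors with Itgb3 and Itgb5, did not pass and averaged 6.88 ± 0.11 in AC9 and 6.58 ± 0.03 in VECTOR (adjusted p 0.0556).

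Of 27 regulators of integrin activity, 1 rose and 3 fell, with a median of -0.0011. The share called was 14.8%, against 17.6% of all genes and 27.8% of genes above the bound in both groups. With the intensity-trended prior 3 rose and 7 fell, and 4674 of all genes were called. Kank2, which binds talin at the rim of adhesions, read 8.53, 8.44 and 8.44 on the AC9 arrays and 8.90, 9.19 and 8.99 on the VECTOR arrays, a log2 change of -0.55 (SE 0.10, limma adjusted p 0.00623). Cav1, the coat protein of caveolae, rose by 0.45 (adjusted p 0.0132) but not without AC9 replicate 1 (0.0579). The tetraspanins Cd151, which binds laminin-binding integrins, and Cd81 fell by 0.36 and 0.31 on the log2 scale (adjusted p 0.0378 and 0.0377). Cd81 no longer passed when any single array was dropped (adjusted p 0.0622 to 0.112), nor did Cd151 when any but AC9 replicate 3 was (up to 0.137) or when arrays were centred on their medians (0.0511), so that 1 regulator was lower without AC9 replicate 1 or 2 and without VECTOR replicate 1 or 2. Rap1a and Rap1b, the small GTPases that bring talin to integrins, did not pass (log2 changes of 0.33 and 0.04, limma adjusted p 0.0574 and 0.802). The groups of Rap1a did not overlap, and those of Rap1b did. Rapgef3, a Rap exchange factor opened by cAMP, averaged 7.39 ± 0.06 in AC9 and 7.53 ± 0.07 in VECTOR (adjusted p 0.341).

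Of 40 other plaque genes, 4 rose and 8 fell (30.0%, against 17.6% of all genes), with a median of -0.07. Csk, the kinase that holds Src family kinases inactive, read 8.55, 8.36 and 8.24 on the AC9 arrays and 9.28, 9.44 and 9.29 on the VECTOR arrays. It was 1.94-fold lower in AC9, a log2 change of -0.95 (SE 0.11, limma adjusted p 0.000492). Palld, an actin-bundling scaffold, averaged 8.52 ± 0.12 in AC9 and 9.38 ± 0.13 in VECTOR (a log2 change of -0.87), Trip6, a relative of zyxin, 8.13 ± 0.13 in AC9 and 8.82 ± 0.23 in VECTOR (-0.69), and Csrp1, a LIM protein of actin bundles, 9.94 ± 0.10 in AC9 and 10.60 ± 0.11 in VECTOR (-0.66), with limma adjusted p of 0.000734, 0.00650 and 0.00239. Pdlim1, which binds alpha-actinin, rose by 0.58 with means of 11.80 ± 0.03 in AC9 and 11.22 ± 0.12 in VECTOR (limma adjusted p 0.00348). Src, the kinase that Csk restrains, was chosen after its value was seen: it averaged 9.08 ± 0.10 in AC9 and 8.75 ± 0.06 in VECTOR, a change of 0.33 (adjusted p 0.0436), and no longer passed when any single array was dropped (0.0567 to 0.148). The count of 4 higher plaque genes was 1 without AC9 replicate 1, 2 or 3 and 2 without VECTOR replicate 1 or 2. These lists were written with earlier results of these data known. Their counts stand, without a test, beside the 17.6% of all genes and the 27.8% of genes above the bound in both groups.

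**Figure D4:**
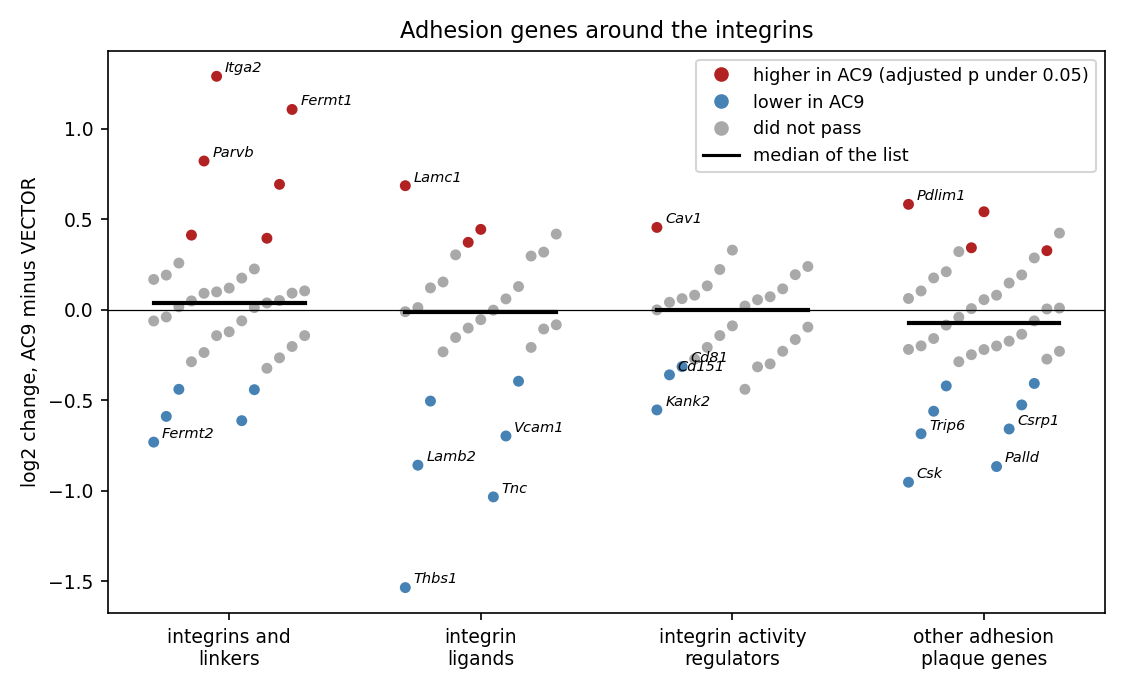
Log2 change (AC9 minus VECTOR, y axis) of the 37 integrin and linker genes and of 27 integrin ligands, 27 integrin activity regulators and 40 other plaque genes (x axis); red points were higher in AC9, blue points lower, grey points did not pass, and black lines are list medians. The medians lie between -0.07 and 0.04, and the extremes are Thbs1 at -1.53 and Itga2 at 1.29.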

How the data were processed

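Total RNA of 6 samples of 393P cells (3 AC9, 3 VECTOR) was measured on Affymetrix Clariom S arrays, 1 per sample, per the labels' protocols. The deposited values are log2 intensities, which the authors obtained with RMA according to their processing notes (per the labels); RMA corrects background, quantile-normalizes arrays and summarises probes. The sources used here give no software version or genome build, and the number of arrays limits the precision. Of 22206 probe sets that were not controls, 19572 had exactly 1 gene symbol in GEO's platform annotation, 0 had several and 2634 were unnamed here; all 19572 matched RefSeq (GRCm38.p6) by gene number. The brightest probe set per gene left 19505 genes. AC9 was compared with VECTOR by limma 3.58.1 in R 4.3.3 (lmFit, eBayes, constant prior, two-sided tests, Benjamini-Hochberg over all genes), with no further normalization or filter. The procedure was tested on simulated arrays, in which a small part of the genes was shifted by a log2 unit. Called members other than Itga2 and Fermt1 changed by less, a size that the simulation did not cover. SE is from that fit, SD over 3 arrays. No fold is given where both groups lay under the negative-control bound. Members and lists were chosen with earlier results of these data known. Every member is accounted for, those past the threshold in full. From each further list the rule names up to 5 called genes with the largest change. Others named (Fn1, Lamb1, Col6a1, Col6a2, Vtn, Rap1a, Rap1b, Rapgef3, Rsu1, Src and Tns2) were chosen after their values were seen. The alternatives were other priors, scalings, filters, thresholds, probe set rules, array weights, a replicate block and leaving out each array.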

Additional observations from a re-analysis of the deposited data

Results flagged for a closer look

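A signal in probes outside the main measurement differed between the groups: 19 of the 23 background probe sets were lower in AC9 without overlap. Its values stand beside the members that fell, and were not set beside the falls in the other lists.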

How the results depend on the processing

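Of 143 alternative fits of the 11 called genes, 14 lost a call, in Lims1, Tns1 and Tns3, and 0 turned a direction. Leaving out each array in turn gave 5 to 6 higher members and 3 to 4 lower ones, with 2174 to 3025 of all genes called. With an adjusted p of 0.01 the number lower was 3 and the number higher 4. An intensity-trended robust prior gave 8 higher and 7 lower, adding Itga3, Itgb1, Ilk and Parva, and with dim genes left out 7 and 7, adding Itga3, Ilk and Parva. Calls also rose over all genes, to 4674 and 4307 in these 2 fits, the latter among fewer genes, against 3424 in the main fit. In the other lists, against 3 higher ligands, 1 higher and 3 lower regulators and 4 higher plaque genes, leaving out dim genes gave 6, 2, 7 and 7, the trended prior 4, 3, 7 and 8, and the replicate block 4, 1, 1 and 2; centring gave 2 higher regulators, and leaving out AC9 replicate 1 gave 0. Centring each array on its median moved the median change of all genes to 0.04 and that of the members to 0.06, and the members' median was -0.02 without VECTOR replicate 1. Same-numbered AC9 and VECTOR arrays deviated with correlations across genes of 0.01, 0.08 and 0.01. With 3 arrays per group these values cannot settle whether the numbers pair the samples. With the replicate block, 6 members were higher and 4 lower, and Tns1 lost its call (adjusted p 0.0524), as did, of the other genes named, Col6a1 (0.0741), Cd81 (0.0739), Cd151 (0.0645) and Src (0.0627). Of the 3 AC9 arrays, 2 deviated most like the VECTOR array of their own number. The 7 differences between related genes kept their direction when normalization was repeated and without each array. Genes near the negative-control bound (Itga4, Itga8, Itgb8 and Ptk2b) may show too small a change.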
